A study of Mus musculus with 8 samples.

Results

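Transcripts of 10 regulators of Notch signaling and of the choice between secretory and absorptive fate were examined in intestinal epithelial cells (IECs) of mice that lack CD1d (CD1d-KO) and of wild-type (WT) mice. They are the receptors Notch1 and Notch2, the ligands Dll1 and Dll4, the Notch target Hes1, and the fate factors Atoh1, Gfi1, Spdef, Neurog3 and Sox4. They were chosen by gene symbol, as 10 of the 25239 genes of the deposited count table. Bulk RNA-seq had been run on IECs from crypts of the proximal small intestine, sorted for EpCAM, an epithelial surface protein, and against CD45, CD31 and Ter119, which mark leukocytes, endothelium and red cells. There were 4 CD1d-KO samples (labelled CD1d1/2 KO, a germline deletion of Cd1d1 and Cd1d2 in every cell) and 4 WT samples (labelled C57BL/6Jax), all untreated and from mice 7 to 10 weeks old. Natural killer T (NKT) cells recognise lipids on CD1d and are missing in CD1d-KO mice, so the comparison asks whether these transcripts differ in an epithelium without CD1d and NKT cells. Per the study, the mice were no littermates, and age and sex were matched across genotypes. Per the deposited design text, the samples came from separate experiments. The labels do not give the experiment or the sex of a sample.

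In the crypt, a cell that carries Dll1 or Dll4 on its surface activates Notch1 or Notch2 on its neighbour. The receptor is then cut, and its intracellular part joins the DNA-binding protein RBPJ and switches on Hes1, a repressor of Atoh1. Cells with active Notch stay progenitors or become absorptive enterocytes, and cells that escape it express Atoh1 and become secretory. Downstream of Atoh1, Spdef acts in goblet and Paneth cell maturation, Gfi1 keeps cells from the enteroendocrine path, and Neurog3 starts that path. Sox4 acts in secretory progenitors, including those of tuft and enteroendocrine cells.

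Sequences upstream of 9 of the 10 genes were found in RefSeq (GRCm38.p6), over 11 transcription starts, and Hes1 was not among them. In the 250 bases before each start, TGGGAA, the core of the RBPJ site, occurred on either strand upstream of Spdef and Sox4. CAGCTG, an E-box of the kind that Atoh1 and Neurog3 can bind, occurred upstream of Neurog3, Sox4 and the second start of Dll1. Among all 32851 RefSeq windows of this length, 21.6% held TGGGAA and 13% held CAGCTG. A match is a string of letters and no measured site. The windows of Atoh1, Spdef and Neurog3 are shown as examples of a fate factor with neither motif, with the RBPJ core and with the E-box. The capitals mark the E-box in Neurog3 and the RBPJ core in Spdef, and Atoh1 held neither. They lie at chr6:64728875-64729124 (plus strand, Atoh1), chr17:27728952-27729201 (minus strand, Spdef) and chr10:62132840-62133089 (plus strand, Neurog3). The deposited annotation of Spdef reaches further upstream, to base 27731003 of chromosome 17.
Atoh1: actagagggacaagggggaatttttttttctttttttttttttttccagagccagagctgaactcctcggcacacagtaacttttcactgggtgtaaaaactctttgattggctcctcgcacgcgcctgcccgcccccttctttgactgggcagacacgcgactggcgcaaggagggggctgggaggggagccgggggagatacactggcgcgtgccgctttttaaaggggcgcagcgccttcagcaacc
Spdef: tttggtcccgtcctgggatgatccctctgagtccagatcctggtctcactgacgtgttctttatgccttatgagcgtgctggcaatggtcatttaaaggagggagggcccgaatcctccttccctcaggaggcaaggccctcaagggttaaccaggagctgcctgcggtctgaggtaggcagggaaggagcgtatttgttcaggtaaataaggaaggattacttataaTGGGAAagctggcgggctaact
Neurog3: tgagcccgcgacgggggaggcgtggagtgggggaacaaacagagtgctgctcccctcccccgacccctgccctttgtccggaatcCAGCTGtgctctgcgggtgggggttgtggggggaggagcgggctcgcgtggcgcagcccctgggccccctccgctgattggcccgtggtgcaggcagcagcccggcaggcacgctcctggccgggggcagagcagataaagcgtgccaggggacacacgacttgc

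CD1d-KO libraries held 29743061 to 31629435 counts and WT libraries 23610266 to 29763051. The targeted Cd1d1 was at 8, 3, 5 and 0 counts across the CD1d-KO libraries, and at 81, 70, 94 and 50 across the WT libraries. Counts of Y-linked genes were 6235 and 7293 in CD1d-KO 1 and 2 and at most 1 in each of the other 6 samples, so that the libraries do not bear out a match of sexes and sex is partly tied to genotype. Whether CD1d-KO 1 and 2 also differed from the others in experiment cannot be told from the labels. Values without CD1d-KO 1 and 2 are given where they turn a direction, end or make a call, or move a value by over 1.5 times. The summed level of 8 epithelial markers was between 13440 and 14877 TPM, a count scaled by gene length and library total, in every sample. The red cell markers Hba-a1, Hba-a2, Hbb-bs and Hbb-bt were at 0 in every sample, and among 12 endothelial markers Cdh5, Kdr, Flt1, Emcn and Cldn5 had at most 3 counts in any sample. The other 7 had more, and the list summed to 14.4 to 19.1 TPM in CD1d-KO and 12.9 to 15.9 TPM in WT. Among 12 stromal markers Col1a2, Col3a1, Lum and Des had at most 3 counts in any sample, and the list summed to 14.4 to 22.05 TPM in CD1d-KO and 13.6 to 16.7 TPM in WT. Summed TPM of 20 leukocyte markers was 26.6 to 31.7 in CD1d-KO and 31.8 to 103 in WT, and that of 11 stomach markers was 58.8 to 117 in CD1d-KO and 164 to 938 in WT. Their part in the results below was not tested.

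None of the 10 regulators passed the test between genotypes (0 of 10 called by DESeq2 at an adjusted p under 0.05, where 4.03% of 15446 tested genes were called). At an unadjusted p under 0.05 there were also 0 of 10, against 15.3% of tested genes, and edgeR's quasi-likelihood test called 0 (1.57% of all genes with a count). No regulator had CD1d-KO values that lay wholly outside the WT values, against 9.61% of tested genes. A second DESeq2 test asked whether a gene's difference was smaller than 1.5-fold in either direction. It placed 9 of the 10 within that limit, against 68.3% of tested genes, Neurog3 being the exception. The 68.3% includes genes with few counts. With only genes of at least 10 counts in 4 samples fitted, the share was 79.0%, again with 9 of the 10. The median log2 fold change of the 10 was -0.05, beside 0.00 over all tested genes. In bulk RNA, fewer cells of a type and less transcript per cell cannot be told apart. The p-values weigh each difference between genotypes against the spread between these mice. Experiment was not in the model. As no label gives it, a difference between experiments may lie in that spread or in the difference between genotypes.

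**Figure D1:**
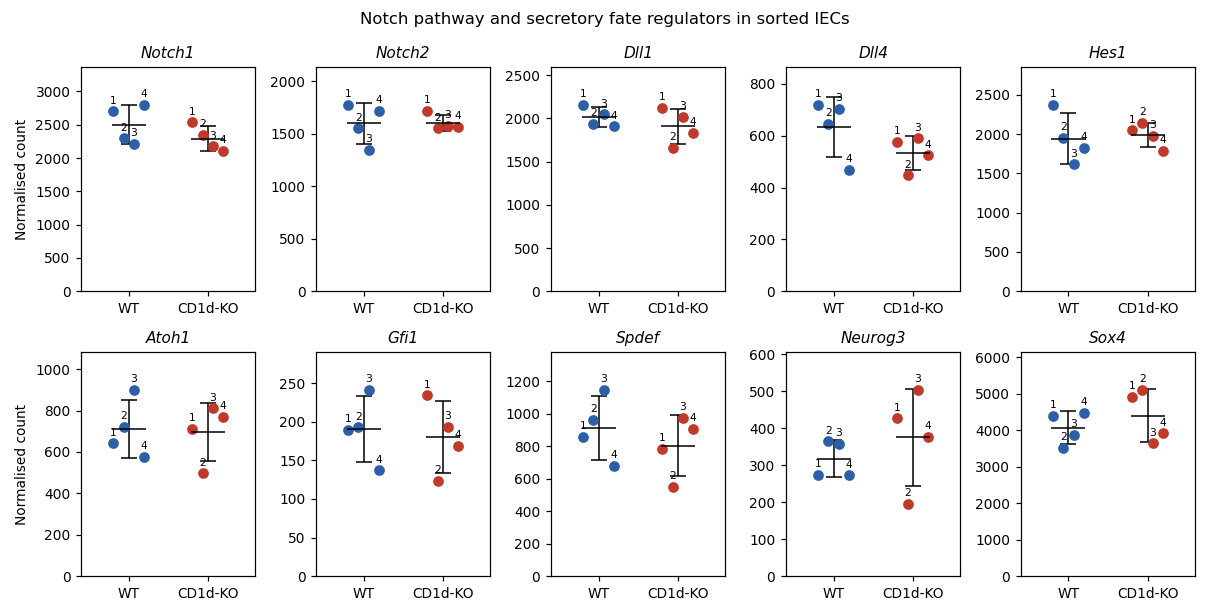
Normalised counts (y axis, linear from 0) of the 10 regulators in 4 WT (blue) and 4 CD1d-KO (red) samples, each point 1 sample with its replicate number, bars the mean and SD. The genotypes overlap in all 10 panels, and CD1d-KO 2 is the lowest of the 8 points in Atoh1, Gfi1, Spdef, Neurog3, Dll1 and Dll4.

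Notch1, one of the receptors (mm10 chromosome 2, 26457902 to 26503822, minus strand), was at 2535, 2348, 2177 and 2106 normalised counts across CD1d-KO samples 1 to 4, and at 2699, 2294, 2214 and 2800 across WT samples 1 to 4, an order kept for all genes below. Normalised counts are counts divided by the size factor of the library. WT 4 and WT 1 were above every CD1d-KO sample, while the other WT samples lay among them. The log2 fold change was -0.13 ± 0.10 (SE; unadjusted p = 0.190, adjusted p = 0.603 in DESeq2), with a 95% interval from -0.31 to 0.06. Notch2 (chromosome 3, 98013538 to 98150367, plus strand) was at 1721, 1552, 1574 and 1564 in the CD1d-KO samples, against 1777, 1554, 1345 and 1719 in the WT samples. The WT samples enclosed all CD1d-KO samples, 3 of which lay between 1552 and 1574. Its means of 1603 ± 79.3 (SD, n = 4) and 1599 ± 194 gave a log2 fold change of 0.00 ± 0.09 (adjusted p = 0.994 in DESeq2), with a 95% interval of the fold from 0.883 to 1.14. Notch2 lies 11014198 bases from Cd1d1 on the same chromosome. Exons of Notch1 share up to 966 bases with 0610009E02Rik (6 to 19 counts) on the opposite strand. Strand was not used in counting, so part of the count of Notch1 is uncertain.

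The ligand Dll1 (chromosome 17, 15367354 to 15375823, minus strand) was at 2123, 1661, 2020 and 1835 normalised counts in the CD1d-KO samples, against 2159, 1942, 2048 and 1908 in the WT samples. CD1d-KO 2 and 4 were below the WT range, and the others lay within it. Its log2 fold change was -0.08 ± 0.09 (SE; adjusted p = 0.786 in DESeq2). Dll4 (chromosome 2, 119325784 to 119335666, plus strand) is the other ligand of crypt secretory cells. It was at 577, 447, 590 and 525 in the CD1d-KO samples, against 720, 647, 704 and 468 in the WT samples. Without WT 4 every WT value would lie above every CD1d-KO value. With all samples, means of 535 ± 65.1 and 635 ± 115 (SD, n = 4) gave a log2 fold change of -0.25 ± 0.14 (SE; unadjusted p = 0.0788, adjusted p = 0.410 in DESeq2), the largest in size among the 10 and with a 95% interval from -0.53 to 0.03. Leaving out WT 4 gave -0.37 ± 0.12 and an adjusted p of 0.0486 in DESeq2, a call, where 3.54% of tested genes were called. The other 13 alternatives gave Dll4 between -0.17 and -0.30 with no call. Up to 217 exon bases are shared with the antisense gene Gm14207 (75 to 118 counts), so part of the count of Dll4 is uncertain.

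Hes1, the Notch target that represses Atoh1 (chromosome 16, 30065357 to 30067796, plus strand), was at 2051, 2145, 1983 and 1790 normalised counts in the CD1d-KO samples, against 2375, 1956, 1614 and 1829 in the WT samples. The highest and the lowest of the 8 values were both WT samples, and the genotypes overlapped throughout. Its log2 fold change was 0.04 ± 0.11 (SE; adjusted p = 0.949 in DESeq2), and the adjusted p of the test for a difference under 1.5-fold was 1.25e-06. The ratio of Hes1 to Atoh1, both in TPM, sets a Notch-on transcript beside one of the cells that escape Notch. It was 4.21, 6.31, 3.57 and 3.39 in the CD1d-KO samples, against 5.41, 3.96, 2.62 and 4.64 in the WT samples. The means, 4.37 ± 1.34 (SD, n = 4) and 4.16 ± 1.18, differed by less than the spread of either genotype.

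Atoh1, the factor that opens the secretory fate (chromosome 6, 64729125 to 64731245, plus strand), was at 712, 497, 811 and 771 normalised counts in the CD1d-KO samples, against 642, 722, 901 and 576 in the WT samples. CD1d-KO 2 was lowest and WT 3 highest, with the rest intermixed. Means were 698 ± 140 (SD, n = 4) and 710 ± 140, a log2 fold change of -0.03 ± 0.16 (SE; adjusted p = 0.976 in DESeq2). Spdef (chromosome 17, 27714446 to 27731003, minus strand) was at 783, 551, 975 and 907 in the CD1d-KO samples, against 857, 964, 1149 and 681 in the WT samples, with the same lowest and highest samples as Atoh1. Its log2 fold change was -0.18 ± 0.18 (adjusted p = 0.719 in DESeq2). Gfi1 (chromosome 5, 107716655 to 107725805, minus strand) was at 234, 124, 194 and 169 in the CD1d-KO samples, against 189, 193, 241 and 137 in the WT samples, and its extremes were again CD1d-KO 2 and WT 3. Its log2 fold change was -0.08 ± 0.21 (adjusted p = 0.936 in DESeq2).

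Neurog3, which starts enteroendocrine differentiation (chromosome 10, 62133090 to 62134763, plus strand), was at 426, 196, 504 and 376 normalised counts in the CD1d-KO samples, against 275, 365, 358 and 273 in the WT samples. CD1d-KO 1, 3 and 4 were all above the WT range and CD1d-KO 2 was below it. The coefficient of variation was 34.8% in CD1d-KO and 15.9% in WT, the former the largest of any regulator, where counting error alone gives 5.33%. The log2 fold change was 0.24 ± 0.23 (SE; unadjusted p = 0.285, adjusted p = 0.705 in DESeq2), and its 95% interval of -0.20 to 0.69 reached a 1.61-fold difference. Without CD1d-KO 2 it was 0.46 ± 0.15 (unadjusted p = 0.00328, adjusted p = 0.107 in DESeq2), where 2.06% of tested genes were called. Without both samples with Y-linked counts it was 0.47 ± 0.18 (unadjusted p = 0.00908, adjusted p = 0.179). Without CD1d-KO 3, the highest sample, it was 0.07 (unadjusted p = 0.765, adjusted p = 0.943 in DESeq2). None of these values passed the test.

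Sox4 (chromosome 13, 28948920 to 28953699, minus strand) was at 4916, 5108, 3641 and 3917 normalised counts in the CD1d-KO samples, against 4398, 3523, 3868 and 4476 in the WT samples. The samples with Y-linked counts, CD1d-KO 1 and 2, were the highest of all 8, and CD1d-KO 3 and 4 lay inside the WT range. Its log2 fold change was 0.11 ± 0.12 (SE; adjusted p = 0.755 in DESeq2) with all samples and -0.10 ± 0.11 (adjusted p = 0.828 in DESeq2) without these samples. Atoh1, Spdef, Hes1 and Notch2 also changed sign, to 0.16, 0.04, -0.04 and -0.03, each with an interval across 0. Notch1 moved to -0.22 ± 0.11 (unadjusted p = 0.0463, adjusted p = 0.441 in DESeq2). In this smaller comparison, 0 of the 10 were called, against 2.57% of tested genes, and 9 of 10 were within 1.5-fold, against 68.0%.

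**Figure D2:**
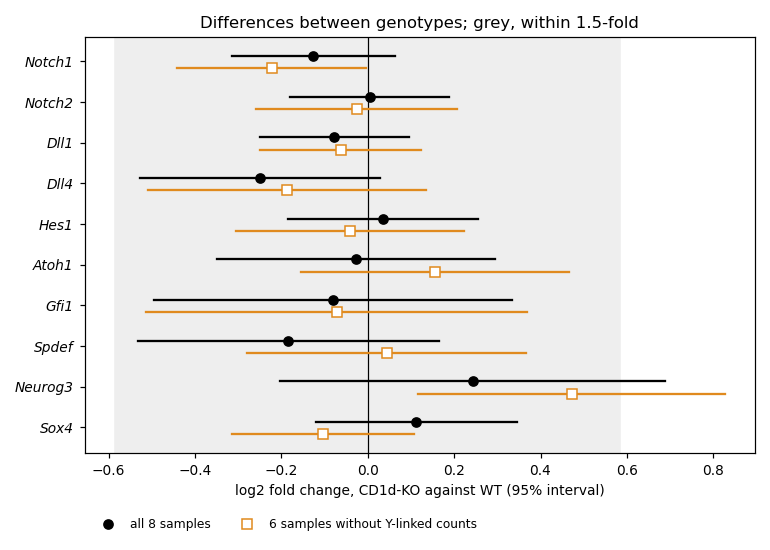
Log2 fold change of each regulator, CD1d-KO against WT (x axis), with 95% intervals from DESeq2, for all 8 samples (black circles) and for the 6 samples without Y-linked counts (orange squares); the grey band spans 1.5-fold in either direction. With all samples every interval crosses 0, and only that of Neurog3 leaves the band.

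Per transcript length, the regulators spanned from 113 TPM for Hes1 to 4.95 TPM for Gfi1. Hes1 was above Sox4 (73.8 TPM), Sox4 above Dll1 (47.6 TPM) and Dll1 above Atoh1 (27.5 TPM) in 8 of 8 samples, with no overlap of their ranges. Atoh1, Spdef (25.6 TPM), Notch1 (21.0 TPM), Neurog3 (18.7 TPM), Dll4 (14.1 TPM) and Notch2 (12.7 TPM) followed, and each overlapped the next in range. Gfi1 was below Notch2 in all 8 samples. Among ligands, the ratio of Dll1 to Dll4 in TPM was 3.45 to 3.74 in CD1d-KO and 2.93 to 4.10 in WT, WT 4 being the sample at 4.10 and the other WT samples at most 3.02. Among receptors, the ratio of Notch1 to Notch2 was 1.49 to 1.67 in CD1d-KO and 1.63 to 1.82 in WT. Spdef stood to Atoh1 at 0.840 to 0.917 in CD1d-KO and at 0.903 to 1.02 in WT. In each of these ratios the genotypes overlapped.

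Several of the regulators varied together from mouse to mouse. CD1d-KO 2 held the lowest value of Atoh1, Gfi1, Spdef, Neurog3, Dll1 and Dll4 and the highest of Sox4. WT 3 held the highest value of Atoh1, Gfi1 and Spdef and the lowest of Hes1 and Notch2. Of the 45 pairs, Atoh1 and Spdef had the closest profiles over the 8 samples, with a root-mean-square distance of 0.293 after each profile was scaled to an SD of 1. Atoh1 and Neurog3 followed at 0.562, and Spdef and Sox4 were the farthest apart at 1.79. Summed TPM of 12 goblet cell markers, among them the mucin Muc2 and Tff3, was 12469, 7210, 12837 and 13238 in the CD1d-KO samples, against 10143, 11932, 15682 and 8454 in the WT samples. It was lowest in CD1d-KO 2 and highest in WT 3, as Atoh1, Spdef and Gfi1 were. The stem cell marker sum was highest in CD1d-KO 1, at 8098 TPM, and lowest in WT 3, at 5063 TPM. Olfm4 alone gave 3838 to 6368 TPM of that sum per sample, so it mainly follows this gene. The share of each lineage in these differences was not tested.

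**Figure D3:**
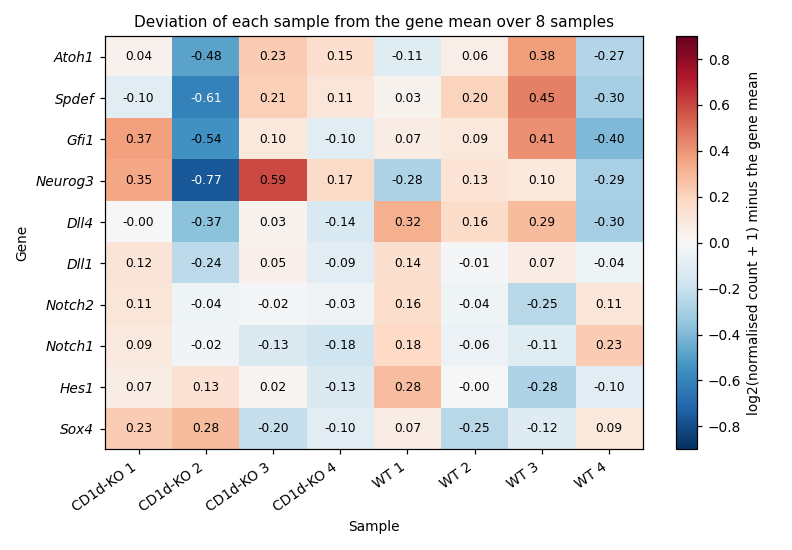
Log2(normalised count + 1) of each regulator (rows) in each sample (columns) minus the gene's mean over all 8 samples, printed in each cell, with red above and blue below the mean. CD1d-KO 2 is below the mean by 0.37 or more in Atoh1, Spdef, Gfi1, Neurog3 and Dll4, and WT 3 is above it by 0.38 or more in Atoh1, Spdef and Gfi1.

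Among 11720 genes whose normalised count averaged 50 or more, those with the most similar profiles over the 8 samples were searched for each regulator. For Gfi1 they were Slc12a8, at a distance of 0.134, Creb3l1, a factor of the secretory pathway, and the fucosyltransferase Fut4. For Spdef they were the secreted phospholipase Pla2g2f, at 0.142, Smim6 and Tmco3. For Atoh1 they were Nrp1, at 0.193, the granule GTPase Rab3d and Ptprn2, a protein of dense-core granules. For Neurog3 they were the zinc-finger factor St18, at 0.255, Tut4 and Dmac1. For Dll4 the nearest was Galnt10, which starts O-glycan chains, at 0.179, followed by Dhps and Slc50a1, and for Dll1 it was Tmem161a, at 0.175, followed by Wrap73 and Polr2f. For Sox4 they were Zfp146, at 0.155, Rbl1, a relative of the retinoblastoma protein, and Trim44, and for Hes1 the RNA-binding protein Rbm25, at 0.220, Acin1 and Cdca2. The receptors had no neighbour as close, the nearest being Slc39a8, at 0.291, for Notch1 and Mms22l, at 0.345, for Notch2. These distances describe 8 samples and share the depth and makeup of each library.

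Hand-written lists of Notch and fate genes, the 10 regulators included, held 97 genes, of which 95 were tested, 0 were called higher and 2 lower in CD1d-KO. Over all tested genes 1.65% were called higher and 2.38% lower. Unadjusted p-values under 0.05 numbered 4 in the higher and 6 in the lower direction, against 15.3% of tested genes in both directions together. Of the 95, 76 (80%) were within 1.5-fold, against 68.3% of tested genes and 79.0% of those with at least 10 counts in 4 samples. The median log2 fold change of the 95 was -0.01. In 5 of the 95 the genotypes did not overlap, against 9.61% of tested genes. One of those called was Maml2, a coactivator that binds the Notch and RBPJ complex, with 25.9 to 41.9 normalised counts in CD1d-KO and 48.5 to 79.5 in WT (log2 fold change -0.83 ± 0.27, SE; adjusted p = 0.0472 in DESeq2). The leukocyte marker sum was also higher in WT, as given above. Across WT samples 1 to 4 that sum was 103, 54.1, 38.2 and 31.8 TPM, beside 54.0, 59.7, 48.5 and 79.5 normalised counts of Maml2. The part of leukocyte transcripts in this difference was not tested. The other was Id3, an inhibitor of E-box-binding factors and a known target of BMP signaling, with 1253 to 1565 in CD1d-KO and 1651 to 1840 in WT (log2 fold change -0.28 ± 0.08; adjusted p = 0.0195 in DESeq2). The call was lost in 12 of 14 alternatives for Maml2 and in 8 of 14 for Id3, while the log2 fold changes ran from -0.67 to -0.95 and from -0.20 to -0.33. With CD1d-KO 1 and 2 left out they were -0.83 for Maml2 (adjusted p = 0.290 in DESeq2) and -0.20 for Id3 (adjusted p = 0.374 in DESeq2), neither called.

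By role, none of 10 receptors and ligands was called, where 4.03% of tested genes were, the share to set beside each list below. Notch4 had the largest test statistic among them, at 154 to 223 normalised counts in CD1d-KO and 202 to 283 in WT (log2 fold change -0.35 ± 0.16, adjusted p = 0.226 in DESeq2). Of 18 genes of processing and glycosylation, 0 were called. Mib2, a ubiquitin ligase of the Mind bomb family that acts on ligands, had 1048 to 1136 in CD1d-KO and 1168 to 1265 in WT with no overlap, but missed the threshold (log2 fold change -0.19 ± 0.07, adjusted p = 0.0924 in DESeq2). Lfng, a glycosyltransferase of Notch receptors, was at 0.19 ± 0.11 (adjusted p = 0.419 in DESeq2). Of 17 nuclear and regulatory genes, Maml2 alone was called. Of 11 Notch targets, 9 were tested and 0 called. The feedback inhibitor Nrarp was at 0.18 ± 0.10 (adjusted p = 0.377 in DESeq2) and Olfm4, which marks crypt stem cells and depends on Notch, at 0.20 ± 0.13 (adjusted p = 0.509 in DESeq2), which became 0.09 and -0.03 without the samples with Y-linked counts. Of 26 secretory fate factors, 0 were called, and the unadjusted p was under 0.05 in 0, against 15.3% of tested genes. In all pathway lists edgeR called 0 as well, against 1.57% of all genes with a count. Bhlha15, a factor of secretory cell maturation, stood at -0.37 ± 0.21 (adjusted p = 0.418 in DESeq2) with all samples and at -0.043 without those with Y-linked counts, and Insm1, an enteroendocrine factor, at 0.28 ± 0.17 (adjusted p = 0.474 in DESeq2). Of 16 absorptive and progenitor factors, Id3 alone was called.

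**Figure D4:**
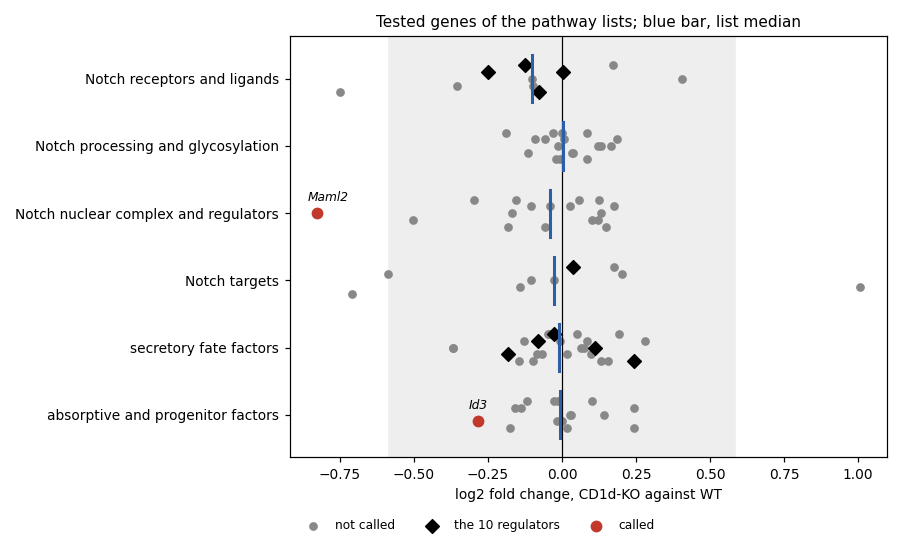
Log2 fold changes (x axis, CD1d-KO against WT) of the tested genes in 6 lists (rows), with the 10 regulators as black diamonds, called genes in red, others in grey, list medians as blue bars and a grey band for 1.5-fold. List medians lie between -0.10 and 0.00, and Maml2 and Id3 are the called genes.

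The mature cells that these factors give rise to were read from marker lists. Among 12 Paneth cell markers 2 were called higher in CD1d-KO, where 1.65% of tested genes were. They were the lysozyme Lyz1 (log2 fold change 0.73 ± 0.23, SE; adjusted p = 0.0416 in DESeq2) and the defensin Defa21 (0.76 ± 0.23, adjusted p = 0.0262), which has near-identical copies and an uncertain count. These calls were lost in 8 and 9 of 14 alternatives, with log2 fold changes from 0.60 to 0.99 and from 0.60 to 0.86. With CD1d-KO 1 and 2 left out, Lyz1 was called (0.99) and Defa21 was not (0.76, adjusted p = 0.192 in DESeq2). Among 12 goblet cell markers 1 was called lower, where 2.38% of tested genes were. It was Retnlb, a secreted resistin-like protein, at 0.9 to 2.9 normalised counts in CD1d-KO and 13.4 to 41.7 in WT (adjusted p = 7.62e-06 in DESeq2).

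Of 15 enteroendocrine, 12 tuft, 12 enterocyte and 12 stem cell markers, 0 were called by DESeq2 with all samples. At an unadjusted p under 0.05 were 15.3% of tested genes, 1092 of the 15446 in the higher direction and 1265 in the lower. Among the markers there were 5 Paneth cell, 1 enteroendocrine, 1 enterocyte and 2 stem cell markers in the higher direction. In the lower direction there were 1 goblet cell, 5 tuft and 1 stem cell markers. Some of those named by the rule became calls in DESeq2 under an alternative. Without the samples with Y-linked counts the prohormone convertase Pcsk1 was higher by 0.54 on the log2 scale (adjusted p = 0.00933) and neurotensin, Nts, by 1.33 (adjusted p = 0.0226), from 0.33 and 0.72 with all samples. In tuft cells, Sh2d6 was called in 3 of 14 alternatives and Alox5, an enzyme of leukotriene synthesis, in 3, with log2 fold changes of -0.34 and -0.53 in all samples and -0.23 and -0.31, not called, without those with Y-linked counts. Of enterocyte markers, the disaccharidase Sis was called in 2 alternatives and the apolipoprotein Apoa1 in 1, and of stem cell markers Slc12a2 in 1, with log2 fold changes of 0.22, 0.45 and 0.29 in all samples. Without the samples with Y-linked counts these were 0.28, 0.70 and 0.011, none called.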

How the data were processed

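Bulk RNA-seq of 8 sorted IEC samples was analysed. The authors deposited raw counts of read pairs per gene, with no normalization. Per the file headers they were made with featureCounts 1.6.4 over exons of an mm10 annotation, primary alignments only, without strand. The study's methods and the submitters' processing notes name HISAT2 and GRCm39, and coordinates here are those of the table (mm10). Of its per-sample columns, 0 went unused. Depth was 23610266 to 31629435 counts per sample. Intervals cover the spread between samples.

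CD1d-KO and WT were compared with DESeq2 1.42.0 (R 4.3.3), genotype as the only term, with Benjamini-Hochberg adjustment over the 15446 genes that passed independent filtering (mean normalised count of 2.41). A further DESeq2 test asked for a difference under 1.5-fold, adjusted over the same genes, and 95% intervals are 1.96 SE. TPM were computed from counts and the table's gene lengths. Profiles were compared after variance stabilisation, among genes with a mean of at least 50. Scripts were tested on simulated data. Between samples of a genotype, chi-square per degree of freedom was 9.73 to 37.2, so no library was a copy of another.

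The 10 regulators and all gene lists were chosen with earlier results of these data known. Named genes were the regulators, Cd1d1, the called genes of each list or, where none was called, those with the largest statistics, and the 3 nearest profiles, not all of which are described. Alternatives were edgeR 4.0.16, TMM factors, a filter of 10 counts in 4 samples, a replicate block, leaving out or modelling the samples with Y-linked counts, a 2-fold limit and leaving out each sample.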

Additional observations from a re-analysis of the deposited data

Results flagged for a closer look

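Among 20 sets of 4 samples (10 regulators in each genotype), 1 had a sample set apart from the others. In CD1d-KO 1 the normalised count of Notch2 was 1721, and its gap to the nearest CD1d-KO sample was 0.874 of the range of the 4 samples, above Dixon's critical value at the 95% level. Chance flags about 1 in 20 such sets. WT 1, at 1777, was higher still.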

How the results depend on the processing

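Over 14 alternatives for each of the 10 regulators, 120 of 140 log2 fold changes kept their direction and side of the threshold, 19 changed sign with no call and 1, Dll4 without WT 4, became a call. Without the samples with Y-linked counts and with their presence as a covariate, respectively, values turned to 0.16 and 0.15 for Atoh1, -0.042 and -0.043 for Hes1, 0.044 and 0.043 for Spdef, -0.10 and -0.11 for Sox4, -0.025 and -0.027 for Notch2 and -0.034 and -0.036 for Olfm4. Leaving out each sample gave -0.11 to 0.11 for Atoh1, -0.045 to 0.15 for Hes1, -0.23 to 0.062 for Gfi1, 0.069 to 0.46 for Neurog3 and -0.071 to 0.059 for Notch2. Genes called numbered 299 with edgeR, 372 without the samples with Y-linked counts and 323 to 646 leaving out each sample (323 without CD1d-KO 2, 385 without WT 2, 406 without WT 1), beside 622, and regulators called 0 to 1. Regulators within 1.5-fold numbered 7 to 9 when 1 sample was left out (7 without WT 4) and 10 within 2-fold, where 80.8% of tested genes were. Pathway genes called were 0 with edgeR, 0 without the samples with Y-linked counts, 0 with the covariate and 0 to 1 leaving out each sample, beside 2. The causes were not tested. Without gene length, 2 of 10 regulators kept their rank in level. Deviations of same-numbered samples correlated at 0.30, -0.07, 0.25 and -0.08. Those of the other pairs across genotypes ran from -0.34 (CD1d-KO 2 with WT 3) to 0.32 (CD1d-KO 4 with WT 3). The WT sample of the same number had the highest correlation for CD1d-KO 1 and CD1d-KO 3, and not for CD1d-KO 2 and CD1d-KO 4. So few correlations cannot settle whether numbers pair the samples, and what samples of both genotypes may share was not tested. The replicate block called 569 genes (434 shared with the 622), 0 regulators and 2 pathway genes (1 higher), with 8 regulators within 1.5-fold. Counting error was at most 7.29% for a regulator, beside coefficients of variation of 4.95% to 34.8% within a genotype.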
